A study of Mus musculus with 20 samples.

Results

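The genes described here encode the proteins of the cytosolic ribosome, the particle that translates messenger RNA outside mitochondria. They were picked by symbol: Rpsa, the P stalk proteins and the numbered Rpl and Rps genes, without the Rps6k kinases. Of 49 symbols that fitted, 1 was left out because the reference gene table lists it as a pseudogene. The remaining 48 genes, 26 of the large subunit and 22 of the small subunit, came from 18193 genes named on the array. Each was read from its probe set with the highest mean signal over all arrays. A further 28 ribosomal protein symbols were found only in probe sets annotated to several symbols and are not named below.

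The study measured RNA of the left ventricle in 20 male C57BL/6J mice on a whole-genome Affymetrix mouse array, with 1 array per mouse. The mice arrived at 6 weeks of age and, after 2 weeks of acclimation, ate standard chow alone or chow mixed with a powdered statin tablet for 4 weeks. Statins inhibit HMG-CoA reductase, the enzyme that makes mevalonate for cholesterol synthesis. There were 5 groups of 4 mice: control, pitavastatin calcium at 4.5 mg per kg per day, pravastatin sodium at 21.0, rosuvastatin calcium at 10.9 and atorvastatin calcium hydrate at 11.4. All were normal mice with no cardiac lesion named in the labels. The doses differ, so the statins are given side by side and were not tested against each other. All 4 comparisons use the same 4 controls, and a shift in those controls enters each of them.

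A ribosome has a small subunit, which decodes messenger RNA, and a large subunit, which joins amino acids. Each subunit is a framework of ribosomal RNA (18S in the small one) bound by many small proteins, most of them present in a single copy. Their messenger RNAs are abundant in most tissues and begin with a run of pyrimidines, the 5′ TOP motif, through which mTOR signalling controls their translation. In heart and skeletal muscle a muscle form of a large-subunit protein, Rpl3l, is also made.

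Promoters of 43 of the 48 genes were in a table of RefSeq gene starts (mouse build GRCm38.p6), each 250 bases before to 50 after the start, and 5 had no entry. The sequences printed here run from 50 bases before the start to 20 after it, on the gene's strand. They were chosen to show the shared words in genes whose values follow and in Rpl7a, which is not described further. Rplp0 and the muscle gene Rpl3l are shown as genes without the words. Capitals mark CTTTC or CTTCC, the pyrimidine words within 20 bases of the start, and CGGAAG (or CTTCCG, the same word on the other strand), which is the core bound by ETS-family factors such as GABP.
Rplp0 (chr5:115559417-115559486, plus strand): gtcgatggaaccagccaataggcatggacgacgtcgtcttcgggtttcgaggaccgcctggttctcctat
Rplp2 (chr7:141447601-141447670, plus strand): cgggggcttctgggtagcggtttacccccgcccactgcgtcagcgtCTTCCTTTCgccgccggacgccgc
Rps6 (chr4:86857348-86857417, minus strand): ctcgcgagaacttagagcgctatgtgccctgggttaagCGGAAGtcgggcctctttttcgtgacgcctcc
Rps18 (chr17:33955646-33955715, minus strand): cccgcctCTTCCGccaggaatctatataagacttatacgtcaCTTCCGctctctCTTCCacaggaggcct
Rpl7a (chr2:26910757-26910826, plus strand): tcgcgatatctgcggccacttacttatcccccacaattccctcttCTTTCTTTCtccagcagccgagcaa
Rpl38 (chr11:114668530-114668599, plus strand): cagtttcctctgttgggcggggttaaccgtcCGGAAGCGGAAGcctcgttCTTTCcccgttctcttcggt
Rpl3l (chr17:24727776-24727845, plus strand): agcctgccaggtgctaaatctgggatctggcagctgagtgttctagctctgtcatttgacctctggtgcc

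Short words recurred in these promoters. CGGAAG on either strand was present in 30 of 43 (69.8%), against 18.8% of the promoters of all 27025 genes in the table. CTTTC or CTTCC on the gene's strand within 20 bases of the start was present in 17 of 43 (39.5%), against 15.8% of all genes. ATGGCG on either strand, the core of the YY1 motif, was present in 16 (37.2%), against 10.2%. TATAAA before the start, on the gene's strand, was present in 2 (4.65%), against 8.94%. CTTCC overlaps CTTCCG, the reverse of CGGAAG, so these counts are not independent. A match describes the letters in the window and is not a measured site.

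The array files hold a scaled signal intensity, in which the trimmed mean of every array was 500.0. All values below are log2(signal + 16) unless called a signal. The test took the 50% of probe sets with the highest means (at least a signal of 81.8), 22518 in all, and 44 of the 48 genes passed. Rpl12, Rpl37, Rps16 and Rps27 did not, with mean signals of 46.5, 40.9, 1.40 and 76.5. Of the 44, 40 had a mean signal of at least 1000 and 29 of at least 10000. The 4 dim ones were Rpl39 (162), Rpl39l (163), Rpl14 (305) and Rps25 (455). Brightness also depends on the probes, so these signals do not order the genes by abundance. The tissue matched its label: the 8 cardiomyocyte markers had mean signals from 7438 (Nppa) to 42964 (Tnnt2), while the liver markers Alb and Apoa1 (70.7 and 51.0) and the T cell markers Cd3e (49.3) and Cd2 (53.8) were below the filter. In whole ventricle, fewer cells of a type and less RNA per cell cannot be told apart.

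Some arrays stood apart in the brightness of their strongest signals. The spiked hybridisation controls ranged from 12.88 (rosuvastatin 3) to 14.79 (atorvastatin 4), and the 99th percentile of the array's log2 values, ribosomal protein probe sets left out, from 13.41 to 13.86 in the same 2 mice.

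No ribosomal protein gene passed the test in any comparison. In limma's moderated F test over the 5 groups, 0 of 44 were called at an adjusted p under 0.05, where 0.00444% of all tested probe sets were. At an unadjusted p under 0.05 there were 4 of 44 (Rpl7, Rps25, Rps14 and Rps18), against 6.24% of all tested. The smallest adjusted p among the genes was 0.591, for Rpl7. Against control, 0 were called for any of the 4 statins or for their mean, and the share called among all tested was 0% in each. The unadjusted 95% interval of a gene's difference extended 0.28 to either side (median over the genes). A call after adjustment over all tested probe sets needs a larger difference than this for a typical gene. Rps25 with atorvastatin differed by 0.36 and had limma's adjusted p = 0.964. The median residual SD was 0.19 for these genes and 0.24 for all tested probe sets.

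The genes lay on the same side of control together, by small amounts. With pitavastatin 43 of 44 were higher, with a median log2 difference of 0.13, where 49.0% of all tested probe sets were higher and their median was -0.003. The lone exception was Rpl39, 1 of the 4 dim genes. With pravastatin 6 of 44 were higher (median -0.06, all tested -0.02), with rosuvastatin 10 (median -0.06, all tested -0.02) and with atorvastatin 6 (median -0.09, all tested -0.03). The mean of the 4 statins had 14 of 44 higher and a median of -0.03. Unadjusted p was under 0.05 for 0 of 44 pitavastatin differences (1.93% of all tested), 0 for pravastatin (3.93%), 0 for rosuvastatin (11%), 2 for atorvastatin (4.57%) and 1 for the mean of the statins (3.05%). Those with atorvastatin were Rpl7 and Rps25, in opposite directions.

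Single mice moved these medians. Without control 1 the pitavastatin median was 0.06, with 37 of 44 genes higher. The pravastatin median was -0.15 without control 1, against -0.06 with it, and -0.01 without pravastatin 2. The rosuvastatin median ran from -0.14 (without rosuvastatin 2) to -0.01 (without control 3). The atorvastatin median ran from -0.18 (without atorvastatin 4) to 0.004 (without atorvastatin 1), where 23 of 44 genes were higher. For the 3 statins with medians below 0 the sign also depended on the scaling. Quantile normalization put rosuvastatin at 0.01, and centring each array on its median over all probe sets put pravastatin at 0.04, rosuvastatin at 0.32 and atorvastatin at 0.003. Pitavastatin kept its sign, at 0.09 and 0.17. With limma's array weights, which give less weight to variable arrays, the medians for pitavastatin, pravastatin, rosuvastatin and atorvastatin were 0.09, -0.10, -0.11 and -0.13. Leaving out 1 mouse at a time, the number of genes higher ran from 4 to 17 for pravastatin, 6 to 20 for rosuvastatin and 3 to 23 for atorvastatin, with the lowest count without control 1 for pravastatin and rosuvastatin. The centring moved the median of all tested probe sets as well, to 0.08 for pravastatin, 0.36 for rosuvastatin, 0.06 for atorvastatin and 0.03 for pitavastatin. Centring shifts all values of an array by the same amount, so the gap between the genes and all tested probe sets could not change under it. Other settings can change that gap. For rosuvastatin the genes were at 0.01 and all tested probe sets at 0.03 under quantile normalization. Without the brightness filter they were at -0.06 and -0.11, the reverse order.

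**Figure D1:**
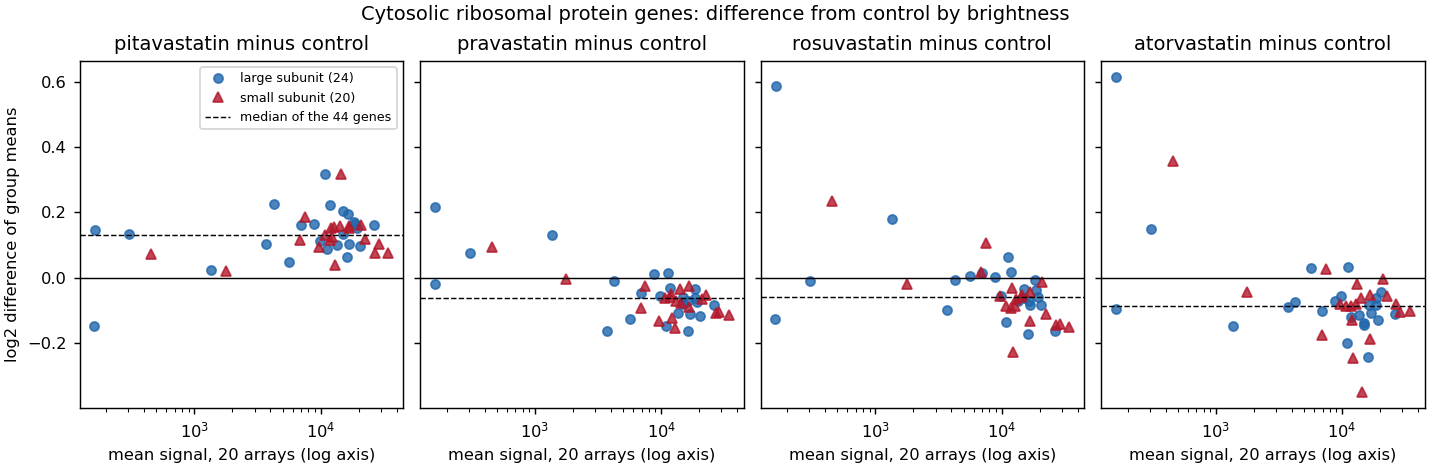
Log2 difference of each statin group from control (vertical axis) against the mean signal over 20 arrays (horizontal, log axis) for the 44 tested ribosomal protein genes, circles for the large subunit and triangles for the small. The dashed line is the median over the genes, at 0.13 with pitavastatin and between -0.09 and -0.06 with the other statins, and the highest points with rosuvastatin and atorvastatin are dim genes on the left, while those with pitavastatin are the bright Rplp0 and Rps2.

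Brightness and subunit were examined separately. Among the 40 genes with a mean signal of at least 1000, 40 were higher in the pitavastatin group, 3 in the pravastatin group, 8 in the rosuvastatin group and 3 in the atorvastatin group. Over all tested probe sets the lean depended on the bound. At 1000 there were 6430 probe sets. Of these, 3505 were higher with pitavastatin (median 0.02), 3430 with pravastatin (0.01), 4059 with rosuvastatin (0.04) and 3073 with atorvastatin (-0.007). At 10000 the probe sets leaned as the ribosomal protein genes did. Of all 764 tested probe sets with a mean signal of at least 10000, which include the ribosomal protein genes, 546 were higher with pitavastatin (median 0.07), 144 with pravastatin (-0.08), 129 with rosuvastatin (-0.08) and 141 with atorvastatin (-0.08). The 29 ribosomal protein genes as bright had medians of 0.15, -0.07, -0.07 and -0.10. The large-subunit genes had medians of 0.14, -0.06, -0.05 and -0.09 and the small-subunit genes 0.12, -0.07, -0.06 and -0.08, in the same order of statins.

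The per-mouse mean over the 44 genes shows where the shift lay. In the controls it was 12.78, 13.09, 13.15 and 13.08 in mice 1 to 4. Control 1 was the low mouse, and the other 3 lay close together. Its spikes (13.83) lay within the range of the other controls (13.69 to 14.02), and its 99th percentile was 13.65, where theirs ran from 13.65 to 13.68. The pitavastatin mice had 13.10, 13.15, 13.15 and 13.21, a narrow group. Controls 1, 2 and 4 lay below all of them, and only control 3 fell within their range. The pravastatin mice had 12.93, 12.85, 13.03 and 13.05. The rosuvastatin mice had 12.86, 13.21, 12.84 and 13.04, and the atorvastatin mice 12.70, 12.93, 12.98 and 13.23. Pitavastatin 4, rosuvastatin 2 and atorvastatin 4 were above every control. Pitavastatin 2 and 3 (13.148 and 13.149) were above control 3 (13.147) by a very small margin. The group mean was 13.02 ± 0.16 in controls (SD, n = 4 here and for each statin). It was 13.15 ± 0.05 for pitavastatin, 12.97 ± 0.09 for pravastatin, 12.99 ± 0.17 for rosuvastatin and 12.96 ± 0.22 for atorvastatin. The SD of the controls was larger than each of these differences from them.

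The genes moved together from mouse to mouse. Within groups, a gene's correlation with the mean of the other genes had a median of 0.85 over 20 arrays. It was above 0.5 for 33 of the 40 brighter genes and for 0 of the 4 dim ones. The first principal component held 58.9% of the within-group variance. These are descriptions over arrays that share a scaling, with no test.

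The 18S ribosomal RNA was read from 3 control probe sets of the array, for the 5′, middle and 3′ parts of the molecule. The middle one was the brightest. It had 11.14, 11.40, 11.36 and 11.46 in controls and 11.68, 11.36, 11.28 and 11.48 with pitavastatin. With pravastatin it had 11.73, 11.62, 12.08 and 12.25, above every control. With rosuvastatin it had 11.77, 11.83, 12.39 and 11.55, also above every control. With atorvastatin it had 11.37, 11.42, 11.70 and 11.33, overlapping the controls. The pravastatin group was 1.49-fold of control and the rosuvastatin group 1.46-fold, both with p = 0.0286 in a two-sided exact permutation test, the smallest that 4 against 4 mice can give. Adjusted over the 4 statins this was 0.0571, and over 32 tests of array measures 0.457, so neither passed 0.05. Pitavastatin and atorvastatin were each 1.08-fold, with exact permutation p of 0.371 and 0.457. The 5′ probe set was 1.21-fold with pravastatin and 1.29-fold with rosuvastatin (exact permutation p = 0.0571 and 0.314), and the 3′ probe set 1.04-fold and 1.02-fold (0.714 and 0.857). The 3 parts of the same molecule thus gave different sizes. Mature 18S RNA has no long poly(A) tail, and how much of it enters the amplified cDNA was not measured here.

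The mean of the protein genes showed no clear relation to 18S. Over 20 arrays the mean of the 44 genes and the middle 18S probe set had Pearson r = -0.12 and Spearman rho = -0.23. With group means removed these were 0.07 and 0.22. Without pravastatin 4 and rosuvastatin 3, the 2 arrays farthest from the median of 18S, r was 0.02. Adding 18S as a covariate left the medians at 0.13, -0.09, -0.08 and -0.09 for pitavastatin, pravastatin, rosuvastatin and atorvastatin, with 0 genes called.

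Their mean moved instead with measures of the array's bright end. With the 99th percentile of other probe sets r was 0.80 and rho 0.81, and without atorvastatin 1 and rosuvastatin 3 r was 0.71. With the hybridisation spikes, which are added after labelling and hold no mouse RNA, r was 0.72 and rho 0.68, and without atorvastatin 4 and rosuvastatin 3 r was 0.66. With the ratio of the 3′ to the 5′ Gapdh probe set r was 0.58, with that of Actb 0.45, and with the array's median signal 0.29. These 6 relations, 18S included, share the arrays' common scaling and are descriptions. With the 99th percentile as a covariate, chosen after the data were seen, the pitavastatin median was 0.12, while those of pravastatin, rosuvastatin and atorvastatin were nearer 0, at -0.02, -0.01 and -0.02. The part of the spikes and of the Gapdh and Actb ratios was not tested.

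**Figure D2:**
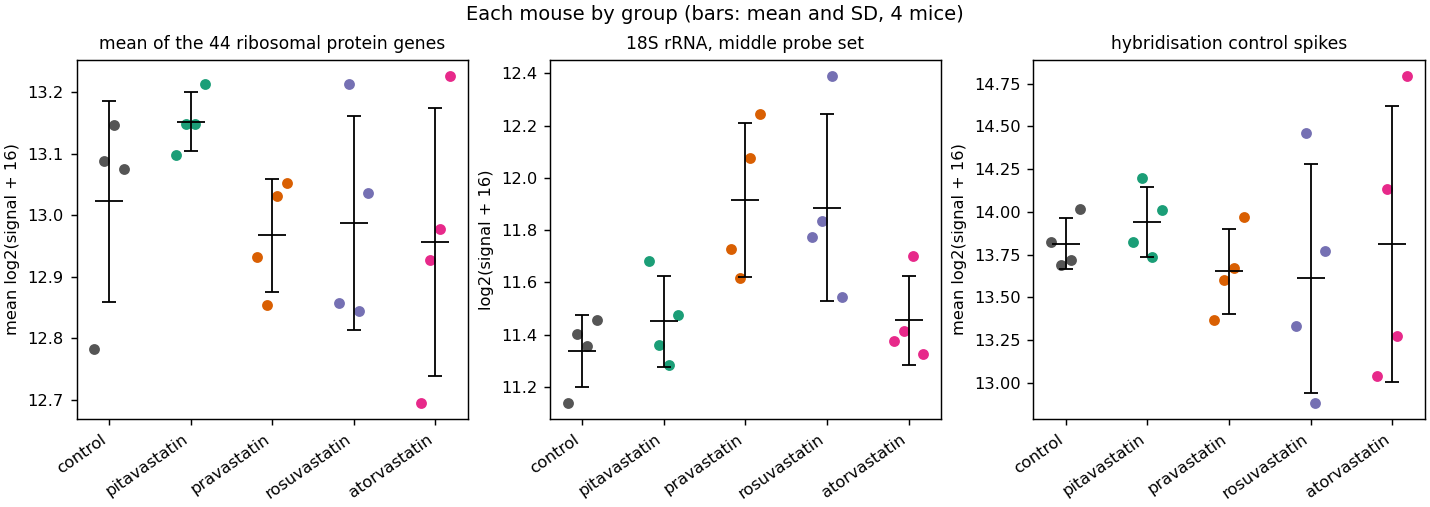
Values of each mouse (points) with the group mean and SD of 4 mice (bars), on a log2(signal + 16) axis that does not start at 0: the mean of the 44 ribosomal protein genes, the middle 18S probe set and the mean of the hybridisation spikes. The pravastatin and rosuvastatin mice lie above every control for 18S and not for the ribosomal protein genes.

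**Figure D3:**
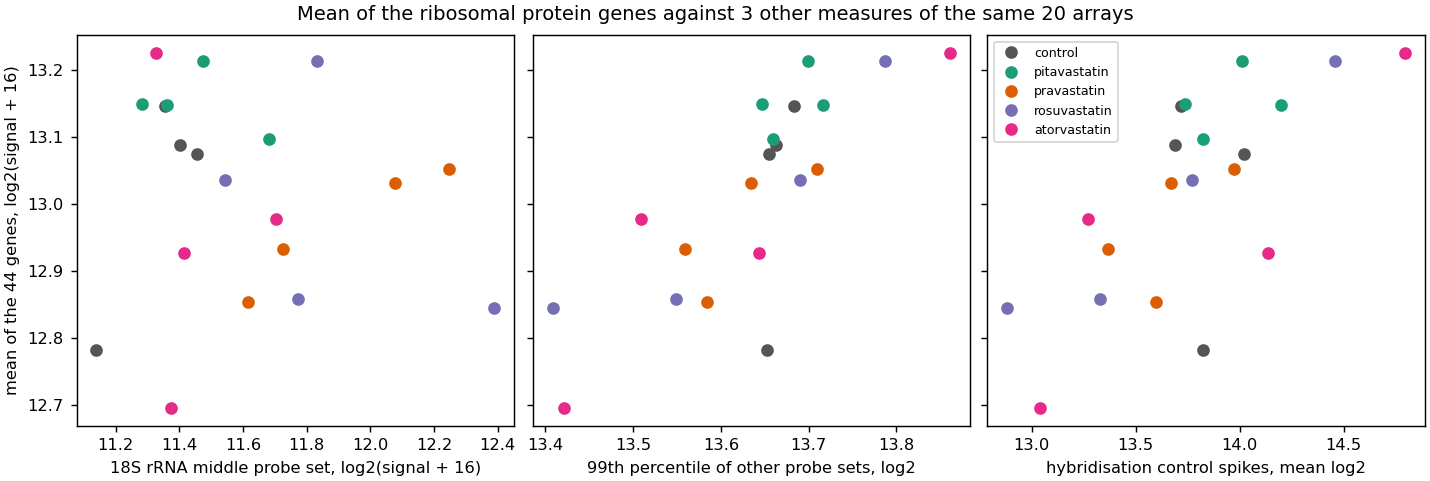
Mean of the 44 ribosomal protein genes in each of 20 mice (vertical axis, log2) against the middle 18S probe set, the 99th percentile of the other probe sets and the hybridisation spikes (horizontal axes, log2), coloured by group. Pearson r is -0.12, 0.80 and 0.72 from left to right.

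Among the stalk proteins, Rplp0 forms the base of the stalk that recruits elongation factors to the large subunit. It had 12.78, 13.75, 13.66 and 13.46 in controls and 13.62, 13.85, 13.73 and 13.73 with pitavastatin. Control 1 alone lay far below, and the groups overlapped. The difference was 0.32 ± 0.18 (SE; 1.25-fold), the largest of the 44 with pitavastatin, with limma's unadjusted p = 0.0869. With atorvastatin Rplp0 was 0.87-fold of control, at 12.95, 12.97, 13.44 and 13.51. Rplp2, which binds Rplp0, was 1.15-fold with pitavastatin and 0.91-fold with atorvastatin. Its 4 pitavastatin mice lay between 14.01 and 14.10 and the controls between 13.59 and 14.04.

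Small-subunit genes held the only set of mice that did not overlap controls. Rps18, at the head of the small subunit, had 13.52, 13.76, 13.70 and 13.71 in controls and 13.84, 13.83, 13.81 and 13.83 with pitavastatin. Every pitavastatin mouse was above every control, a 1.11-fold difference (log2 0.16 ± 0.10, SE). For this difference limma's p was 0.123 unadjusted and 0.9999 adjusted. In limma's F test over the 5 groups p was 0.0455 unadjusted and 0.787 adjusted. Rps18 was 1 of 44 genes with such a separation upward with pitavastatin, where 0.924% of all tested probe sets had it. None of the 44 was separated downward with pitavastatin (0.764% of all tested), or in either direction with pravastatin (1.92% upward and 1.03% downward), rosuvastatin (1.87% and 2.66%) or atorvastatin (0.799% and 0.573%). Of its 6 probe sets 2 others passed the filter, with log2 differences of 0.17 and 0.23 with pitavastatin.

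Rps2, near the entry of the messenger RNA channel, had the widest swing among the bright genes. Controls had 13.26, 14.19, 14.20 and 13.58, pitavastatin mice 13.87, 14.31, 14.02 and 14.31, and atorvastatin mice 13.38, 13.08, 13.76 and 13.62. It was 1.25-fold with pitavastatin (limma's unadjusted p = 0.144) and 0.79-fold with atorvastatin (limma's unadjusted p = 0.109). Controls alone spanned almost the whole range, with mice 1 and 4 low and mice 2 and 3 high.

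Rps14, on the platform of the small subunit, was 1.09-fold, 0.92-fold, 0.85-fold and 0.84-fold of control with pitavastatin, pravastatin, rosuvastatin and atorvastatin. Controls had 13.25, 13.73, 13.88 and 13.77 and atorvastatin mice 13.53, 13.17, 13.66 and 13.30. Controls 2, 3 and 4 were above every atorvastatin mouse, and control 1 was below all of them but mouse 2. The F test's unadjusted p was 0.0448 and adjusted p 0.787.

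Rps25, which some viral and cellular internal ribosome entry sites need, ran the other way. Controls had 8.80, 8.55, 8.45 and 9.07 and atorvastatin mice 9.05, 9.06, 9.12 and 9.06. The atorvastatin mice were tightly grouped, and only control 4 reached them. The difference was 0.36 ± 0.11 (SE; 1.28-fold), with limma's unadjusted p = 0.00479 and adjusted p = 0.964. Rosuvastatin was 1.18-fold and pravastatin 1.07-fold. This probe set was dim, and it was the only one named for Rps25 alone.

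Rps6, the substrate of S6 kinase, was steadier. Rps6 ranged from 10.69 to 10.96 in controls and its differences lay between -0.04 (atorvastatin) and 0.02 (pitavastatin), each with an SE of 0.08. Rpsa, also known as the laminin receptor, was 1.07-fold with pitavastatin. It was 0.91-fold, 0.96-fold and 0.95-fold with the others, against a residual SD of 0.145 on the log2 scale. Its controls had 12.94, 13.38, 13.43 and 13.34.

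In the large subunit Rpl7, an RNA-binding protein, had the smallest F p of the 44 (0.0105, adjusted 0.591). Controls had 13.93, 14.12, 14.11 and 14.15 and atorvastatin mice 13.67, 13.87, 13.85 and 13.95. Only control 1 lay within the range of the atorvastatin mice. The difference was -0.24 ± 0.09 (SE; 0.85-fold), with limma's unadjusted p = 0.0113 and adjusted p = 0.964. Pravastatin and rosuvastatin were both 0.89-fold. The other 2 probe sets of Rpl7 differed by -0.14 and -0.08 with atorvastatin. Its distant relative Rpl7l1, which acts in ribosome assembly, was 1.10-fold and 1.13-fold with pravastatin and rosuvastatin and 0.90-fold with atorvastatin, with an SE of 0.14 on the log2 scale. The other 2 probe sets of Rpl7l1 had the opposite sign with pravastatin (log2 -0.12 and -0.007) and rosuvastatin (-0.05 and -0.04). With atorvastatin they had the same sign (-0.12 and -0.16).

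Rpl38, reported to select certain messenger RNAs for translation, ranged from 14.44 to 14.83 in controls and from 14.05 to 15.06 with atorvastatin. Its differences lay between -0.16 and 0.16 with an SE of 0.19. Rpl41, a very short peptide at the bridge between the subunits, was 1.08-fold with pitavastatin and 0.89-fold with pravastatin (SE 0.14 on the log2 scale). Rpl14 was dim and within 0.15 of control with every statin, with an SE of 0.15.

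**Figure D4:**
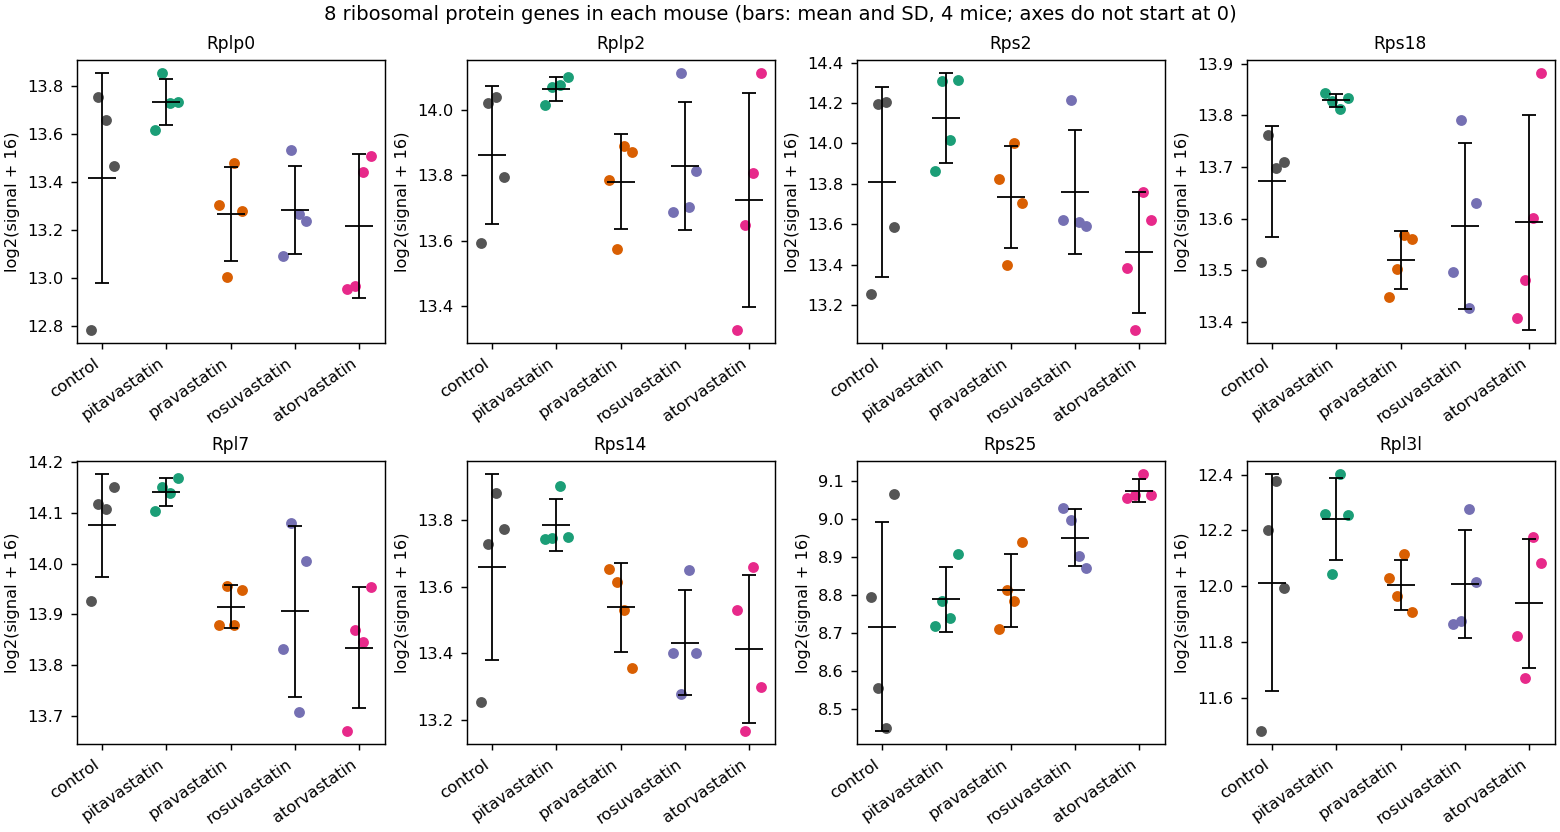
Log2(signal + 16) of 8 ribosomal protein genes in each mouse (points) with group mean and SD (bars, 4 mice); axes do not start at 0. Control 1 is the lowest control for Rplp0, Rplp2, Rps2, Rps18, Rpl7, Rps14 and Rpl3l, and for Rps18 every pitavastatin mouse lies above every control.

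No partner of a paralog pair passed the test. Rpl3l, the striated muscle form of Rpl3, had 11.48, 12.20, 12.38 and 11.99 in controls and 12.26, 12.04, 12.40 and 12.26 with pitavastatin. It was 1.17-fold with pitavastatin (log2 0.23 ± 0.15, SE) and between 0.95-fold and 1.00-fold with the other statins. Rpl22 and Rpl22l1, which can replace each other in the large subunit, were 1.06-fold and 1.03-fold with pitavastatin. With pravastatin they were 1.01-fold and 0.92-fold, and with atorvastatin 1.02-fold each. Rpl39l, the paralog of Rpl39 best known from testis, was 1.50-fold with rosuvastatin and 1.53-fold with atorvastatin, the highest of the 44 for both. Its rosuvastatin mice ran from 6.68 to 8.61 and its controls from 6.73 to 7.48, so they overlapped, and limma's unadjusted p were 0.101 and 0.087. Rpl39 itself ran from 6.37 to 8.40 in controls alone, with a residual SD of 1.11, the highest of the 44. Rps27 was under the filter. Rps27l, induced by p53 in other settings, was 1.08-fold with pitavastatin and 0.89-fold with atorvastatin (SE 0.11 on the log2 scale). Further probe sets of Rps27l were at log2 -0.04 and 0.04 with pitavastatin and -0.18 and -0.15 with atorvastatin.

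Several genes had further probe sets. For the 20 genes with more than 1 tested, the 41 other probe sets had the same sign as the brightest in 36 cases for pitavastatin, 33 for pravastatin, 26 for rosuvastatin and 35 for atorvastatin. All 85 tested probe sets named for a single ribosomal protein gene had a median of 0.13 with pitavastatin, 79 of them higher. The 94 tested probe sets annotated to several symbols, a ribosomal protein gene among them, had a median of 0.13 with 83 higher. In 15 of the 48 genes the probe set carried the suffix x_at, by which the maker marks probes that can bind other transcripts, and ribosomal protein genes have many processed copies in the genome. Signal from such copies was not separated.

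Genes that act with the ribosomal proteins had 0 calls in limma's test with every statin. Of 16 tested translation factors and other 5′ TOP genes, 14 were higher with pitavastatin (median 0.11), 6 with pravastatin (-0.02), 10 with rosuvastatin (0.01) and 4 with atorvastatin (-0.03). Hnrnpa1, an RNA-binding protein, and Pabpc1, the poly(A)-binding protein, had the smallest F p of that list, with adjusted p of 0.591 and 0.694. Eef1a2, the elongation factor of muscle, was at log2 0.12, -0.15, -0.13 and -0.23 with pitavastatin, pravastatin, rosuvastatin and atorvastatin. Fau, whose product is split into a ubiquitin-like protein and a small-subunit protein, was at 0.17, 0.005, 0.10 and -0.09 in the same order.

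The RNA polymerase I genes, which make the precursor of 18S, had 7, 7, 5 and 8 of 13 higher, with medians of 0.02, 0.004, -0.05 and 0.08. Polr1c and Znrd1, subunits of the polymerase, had the smallest F p. Of 30 ribosome assembly genes, 19, 19, 22 and 15 were higher (medians 0.05, 0.05, 0.10 and 0.02). Nolc1 and Rrs1 led that list by F p, with adjusted p of 0.529 and 0.591. Nolc1 was at log2 -0.15, 0.32, 0.34 and 0.06. Of 12 genes of the signalling that controls ribosomal protein translation, 5, 4, 9 and 8 were higher. Rptor, which encodes the scaffold protein raptor of the mTOR complex, was at log2 -0.14, -0.44, -0.32 and -0.29. Its adjusted p in limma's F test was 0.591. Larp4, an RNA-binding protein, had the next smallest F p of that list (limma's adjusted p = 0.787). Limma's unadjusted p was under 0.05 for 4 of the 30 assembly genes with pravastatin, where 3.93% of all tested probe sets reached it. It was under 0.05 for 3 of the 16 translation factors and other 5′ TOP genes with atorvastatin (4.57% of all tested). Fewer genes reached it in each other list and statin.

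The 76 mitochondrial ribosomal protein genes, which build a separate ribosome inside mitochondria, had 70 higher for pitavastatin (median 0.12), 20 for pravastatin (-0.07), 40 for rosuvastatin (0.007) and 7 for atorvastatin (-0.14). The medians had the sign of the cytosolic ones except for rosuvastatin. Mrps10 and Mrpl58 had the smallest F p of that list, with limma's adjusted p of 0.616 and 0.699, and both were at log2 0.26 with pitavastatin. Whether the cytosolic and mitochondrial genes differed was not tested. Cardiomyocyte markers leaned the same way as the cytosolic genes. Of 8 markers, 7 were higher with pitavastatin (median 0.09), 0 with pravastatin (-0.12), 1 with rosuvastatin (-0.19) and 0 with atorvastatin (-0.12). Their summed signal ran from 227940 to 277900 in controls. In the pitavastatin, pravastatin, rosuvastatin and atorvastatin mice its ranges were 250806 to 289934, 202353 to 279089, 156382 to 331085 and 155156 to 346839. Bright probe sets in general had this lean. Of all 764 tested probe sets with a mean signal of at least 10000, 546, 144, 129 and 141 were higher in the same order. The part of the cardiomyocyte markers in the ribosomal protein values was not tested. Of the fibroblast markers 2, 0, 4 and 0 of 6 were higher in the same order of statins, and their summed signal lay between 11098 and 16515 in all mice. The endothelial markers had 4, 4, 3 and 3 of 5 higher and the macrophage markers 2, 3, 4 and 2 of 5. The tested smooth muscle markers had 3, 1, 3 and 3 of 3 higher.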

How the data were processed

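The authors deposited a linear signal intensity for each probe set. The submitters' processing notes name MAS5, without a version. The labels' protocols state amplification of cDNA from 100 ng of total RNA with the NuGEN Ovation kit. Scanner files and detection calls were not used here. The trimmed mean was equal on all arrays, so the values had been scaled.

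From these values log2(signal + 16) was computed, 64 control probe sets were left out, and the brighter 50% of 45037 probe sets by mean log2 were kept. limma 3.58.1 in R 4.3.3 (lmFit, eBayes with trend) fitted 1 mean per group over all 20 arrays, with Benjamini-Hochberg adjustment over all 22518 probe sets. Array measures were compared with exact permutation tests. The number of arrays limits the precision, and since the labels name separate mice, p-values measure the spread between mice. Symbols came from the platform annotation: 34945 probe sets have 1 symbol and 932 several, and all 48 gene identifiers matched the RefSeq-based gene table.

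Genes named were those with the 5 smallest F p, the 3 highest and 3 lowest differences with each statin, the stalk proteins, Rpsa, Rps6, the paralog pairs, and the 2 genes with the smallest F p of each other list on ribosomes and translation. The members, lists and this rule were chosen with earlier results of these data known. Alternatives tried were quantile normalization, median centring, other pseudocounts, no filter or a stricter one (30%), no trend, array weights, the median over a gene's probe sets, covariates (18S, median signal or 99th percentile), other 18S probe sets, only the groups compared, a replicate block, leaving out each mouse, and leaving out the 2 arrays of lowest and highest median signal. Figures were drawn with matplotlib 3.10.9.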

Additional observations from a re-analysis of the deposited data

Results flagged for a closer look

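Of 115 groups of 4 mice looked at over the named genes and array measures, 4 held a mouse far from the other 3 relative to the group's range. Chance flags about 1 in 20 groups of independent, normally distributed values. Here the genes share arrays and moved together, and the 4 flags were not tested against that rate. Rpl41 was 11.55 in control 1, with the other controls between 11.98 and 12.03. Rps14 was 13.90 in pitavastatin 3, with the others between 13.74 and 13.75. Rps2 was 14.22 in rosuvastatin 2, with the others between 13.59 and 13.62. Rps25 was 9.12 in atorvastatin 3, with the others between 9.05 and 9.06. All are log2(signal + 16).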

How the results depend on the processing

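Under every alternative run, 0 ribosomal protein genes were called by limma, for each statin, for the mean of the statins and for the F test. The medians over the genes were less settled. Centring each array on its median over all probe sets, the planned form, moved the rosuvastatin median to 0.32 (reported value -0.06) and that of the mean of the 4 statins to 0.13 (reported value -0.03). Over the tested probe sets alone, chosen after seeing that result, the same medians were -0.01 and -0.003. Quantile normalization gave 0.09, -0.01, 0.01 and -0.03 for pitavastatin, pravastatin, rosuvastatin and atorvastatin. Array weights gave 0.09, -0.10, -0.11 and -0.13 in that order and -0.07 for the mean of the statins. The array's median signal as a covariate, and leaving out the 2 arrays of lowest and highest median signal, each put rosuvastatin at -0.01 and the mean of the statins at -0.01. Leaving out 1 mouse at a time, the pitavastatin median ran from 0.06 (without control 1) to 0.17, pravastatin from -0.15 to -0.01, rosuvastatin from -0.14 to -0.01, atorvastatin from -0.18 to 0.004 and the mean of the statins from -0.10 (without control 1) to 0.04 (without control 3). The 18S differences kept their sign in all of these, between 0.38 (without rosuvastatin 3) and 0.66 for rosuvastatin and between 0.47 and 0.68 for pravastatin. With the replicate number as a replicate block the pitavastatin median was again 0.13 and 0 genes were called. Correlations of same-numbered mice ran from -0.54 to 0.69, with means from -0.03 (number 2) to 0.24 (number 4). Of 20 arrays, 7 were closest to one of their own number. No chance level was computed for these values, and whether the numbers mark a pairing or a batch was not tested. With 4 mice per group, exact tests cannot go below 0.0286, and the 4 dim genes carry the widest errors.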
